A study of Mus musculus with 79 samples.

Results

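The teneurins, the neural cell adhesion molecules (NCAMs) and the contactin-associated proteins are cell-surface adhesion genes of neurons. The 10 genes described here are the 4 teneurins Tenm1, Tenm2, Tenm3 and Tenm4, the 2 NCAMs Ncam1 and Ncam2, and the 4 contactin-associated proteins Cntnap2, Cntnap3, Cntnap4 and Cntnap5a, out of 55471 genes in the deposited count table. They were chosen by symbol as long adhesion genes, with earlier results of these data known and several of them named in the study, and all 10 passed the filter on low counts in both brain regions. The libraries came from 40 wild-type male CD-1 mice, 9 to 10 weeks old by the methods, and were made from the medial prefrontal cortex (mPFC, 39 libraries) and the ventral hippocampus (vHipp, 40 libraries). Control mice (CTRL) and mice exposed to 21 days of chronic social defeat stress (CSDS) each received a single injection of saline or of ketamine at 10 mg per kg, and tissue was taken 7 days later. This gave 4 groups of 10 mice per region, except that the mPFC of 1 CSDS ketamine mouse was not analyzed here, so that this group held 9. The stress was a modified protocol in which the mice were defeated daily by an unfamiliar CD-1 aggressor and then went back to their home group of 4. CSDS mice carried the numbers 1 to 20 and CTRL mice the numbers 21 to 40, so stress and the order of the mouse numbers cannot be told apart, and social rank, which the labels do not give, was not used. Total counts ran from 11726129 to 41767119 per library, and at this depth every one of the 10 genes was detected in all 79 libraries.

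Teneurins are very large transmembrane proteins that reach across the cleft between cells, where they bind one another and the latrophilin receptors (Adgrl genes), which in turn bind the FLRT proteins. NCAM1 is the classic immunoglobulin-type adhesion molecule of the nervous system, is modified with long polysialic acid chains by the enzymes St8sia2 and St8sia4, and signals with Fgfr1, Gfra1 and the kinase Fyn. NCAM2 is its close relative and is best known from olfactory axons. The contactin-associated proteins are neurexin-like molecules that work with contactins. The best known of them, Cntnap2 (Caspr2), holds the potassium channels Kcna1 and Kcna2 in place beside the nodes of myelinated axons, and Cntnap4 is known from inhibitory interneurons.

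All 10 genes are long (positions in GRCm38, gene models of GENCODE M21). Tenm1 (ENSMUSG00000016150) lies on the minus strand of chrX:42527866-43429126 and spans 901 kb. Tenm2 (ENSMUSG00000049336) lies on the minus strand of chr11:36006656-37235964 and Tenm3 (ENSMUSG00000031561) on the minus strand of chr8:48227682-48843951. Tenm4 (ENSMUSG00000048078) lies on the plus strand of chr7:96171246-96911093. Ncam1 (ENSMUSG00000039542) occupies chr9:49502136-49798925 on the minus strand, and Ncam2 (ENSMUSG00000022762) occupies chr16:81200697-81626828 on the plus strand. The plus-strand gene Cntnap2 (ENSMUSG00000039419) takes up chr6:45059357-47304213, which at 2245 kb is the longest span of the 10. Cntnap3 (ENSMUSG00000033063), at chr13:64736182-64903955 on the minus strand, has the shortest span, 168 kb. Cntnap4 (ENSMUSG00000031772) lies at chr8:112570043-112882717 and Cntnap5a (ENSMUSG00000070695) at chr1:115684756-116587323, both on the plus strand. Their merged exons add up to between 6.28 kb for Cntnap4 and 21.0 kb for Tenm4, where the median of 15792 genes with a mean of at least 20 counts was 4.21 kb, and their spans all exceed the median span of 21.7 kb. The GC content of the exons ran from 38.2% in Ncam2 to 53.2% in Tenm4, around the median of 49.6%. In 5 of the genes an antisense gene overlaps part of the exons, at most 8.25% of them (Sh2d1a in Tenm1, with a mean of 1.03 counts per library against 1241 for Tenm1). The library kit keeps the strand, but the strand setting of the counting is not given in the sources used here.

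The promoter windows of the 3 genes that differed most between the regions are given here to let their starts be compared. They are RefSeq sequences of GRCm38.p6, each 300 bases on the strand of the gene, and capitals mark every match to TATAAA (the TATA box letters) or GGGCGG (the core letters of a GC box), searched on both strands. The 2 motifs have no letter in common and so cannot overlap each other, and 7 of the 10 genes had a window in the RefSeq table. The windows are chr8:48674641-48674940 for Tenm3, chr16:81200447-81200746 for Ncam2 and chr13:64903839-64904138 for Cntnap3.
Tenm3: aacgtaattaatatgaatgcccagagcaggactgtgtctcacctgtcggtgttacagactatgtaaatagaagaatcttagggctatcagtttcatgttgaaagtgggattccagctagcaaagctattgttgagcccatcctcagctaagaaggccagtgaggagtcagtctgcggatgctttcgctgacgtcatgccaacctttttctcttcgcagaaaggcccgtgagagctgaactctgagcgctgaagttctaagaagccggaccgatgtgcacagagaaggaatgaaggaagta
Ncam2: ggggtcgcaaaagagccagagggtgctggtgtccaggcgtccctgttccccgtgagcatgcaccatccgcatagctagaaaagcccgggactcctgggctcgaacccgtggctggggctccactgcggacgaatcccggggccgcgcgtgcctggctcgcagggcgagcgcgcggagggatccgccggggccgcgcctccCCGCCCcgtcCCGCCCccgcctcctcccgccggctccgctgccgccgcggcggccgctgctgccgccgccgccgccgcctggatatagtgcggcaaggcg
Cntnap3: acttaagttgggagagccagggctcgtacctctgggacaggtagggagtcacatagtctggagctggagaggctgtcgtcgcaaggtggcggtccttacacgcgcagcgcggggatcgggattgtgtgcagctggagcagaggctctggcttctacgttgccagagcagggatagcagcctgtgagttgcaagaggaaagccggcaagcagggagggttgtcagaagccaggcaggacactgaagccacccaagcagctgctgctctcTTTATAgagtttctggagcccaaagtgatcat
The Ncam2 window was 75.7% G or C with 41 CpG pairs and 2 GGGCGG matches, although the exons of Ncam2 were the poorest in GC of the 10 genes. The Cntnap3 window was 58.0% G or C and held 1 TATAAA match, and the Tenm3 window, whose RefSeq start lies inside the GENCODE gene, was 47.3% G or C and held neither motif. Over all 32851 windows of this length in the table, 13.6% held TATAAA and 35.7% held GGGCGG, and the median window was 52.7% G or C with 7 CpG pairs. A match is a description of the letters and not of a site in use.

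To ask how strongly each gene was expressed in each region, counts scaled to library size (CPM) were divided by the length of the merged exons, since only a level per length can be compared between genes. Ncam1 stood highest in both regions, at a median of 37.1 CPM per kb in mPFC (32.7 to 43.9 over 39 libraries) and 38.1 in vHipp (31.3 to 44.2 over 40 libraries). Tenm2 followed at 27.4 (20.8 to 35.9) in mPFC and 22.2 (11.3 to 28.0) in vHipp. Cntnap3 stood lowest, at 1.61 (0.56 to 2.58) in mPFC and 0.88 (0.53 to 1.79) in vHipp. Ncam1 exceeded Tenm2, and Tenm2 exceeded Cntnap2, within every library of both regions. Cntnap2, with a median of 13.7 in mPFC and 11.9 in vHipp, and Tenm4, with 13.3 and 10.9, lay close together, and Cntnap2 was the higher in 24 of 39 mPFC and 29 of 40 vHipp libraries. Below them in mPFC came Ncam2 (10.1), Tenm3 (5.76), Cntnap4 (5.10), Cntnap5a (4.10) and Tenm1 (2.91). Of these neighbors, Tenm3 exceeded Cntnap4 in 28 of 39 libraries and Cntnap4 exceeded Cntnap5a in 30 of 39, and their ranges over libraries overlapped. In vHipp, Tenm3 (8.12) stood ahead of Ncam2 (7.55), in 30 of 40 libraries. Cntnap5a (4.26), Cntnap4 (4.15) and Tenm1 (3.94) lay close together there. Cntnap5a exceeded Cntnap4 in 19 of 40 libraries and Cntnap4 exceeded Tenm1 in 27 of 40. The order of neighbors was not tested.

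**Figure D1:**
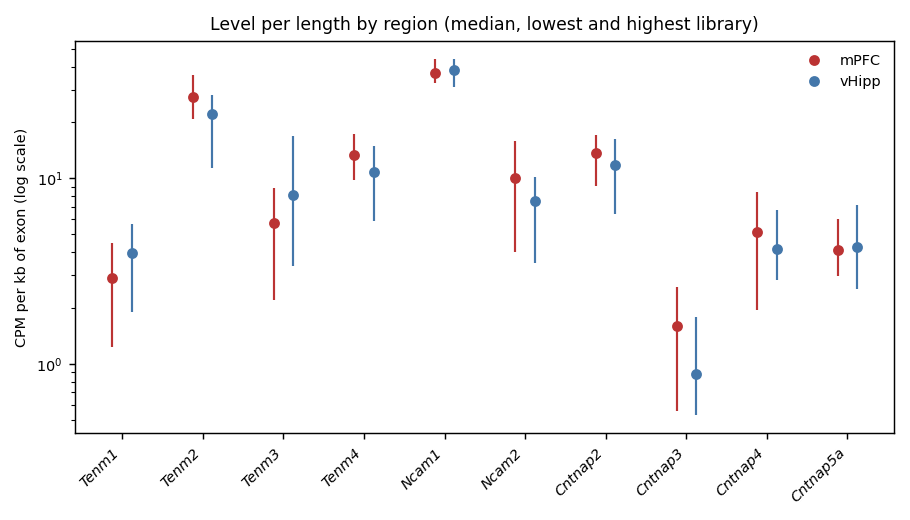
Level of each gene per kb of merged exon (CPM per kb, log scale) in mPFC (39 libraries) and vHipp (40 libraries), with points for the median and lines from the lowest to the highest library. Ncam1 is highest in both regions at about the same level (37.1 and 38.1), while Cntnap3 is lowest in both (1.61 and 0.88).

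The regions themselves were compared over all mice in a model that held the stress and treatment groups apart. By edgeR's quasi-likelihood test after Benjamini-Hochberg adjustment, 8 of the 10 genes differed between mPFC and vHipp, of which 6 were higher in mPFC and 2 were lower. The same test called 48.9% of 31534 genes, 24.5% higher and 24.4% lower in mPFC, so a call between the regions was common. The summed markers of the regions followed the labels. The summed level of the 6 hippocampal markers (Prox1, C1ql2, Dsp, Spink8, Fibcd1 and Zbtb20) was 86.05 to 312 CPM in mPFC and 529 to 1065.7 CPM in vHipp, and that of the 5 cortical layer markers (Rorb, Cux2, Fezf2, Tle4 and Rasgrf2) was 449.6 to 716 CPM in mPFC and 231 to 374 CPM in vHipp. Within the second list Tle4 went the other way, with a median of 52.8 CPM in mPFC and 80.4 CPM in vHipp (LFC -0.54, SE 0.06). In bulk tissue, fewer cells of a type and less RNA per cell cannot be told apart.

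Among the teneurins, Tenm2 and Tenm4 were higher in mPFC, and Tenm1 and Tenm3 were higher in vHipp. Tenm3, whose graded level is known to guide wiring between hippocampal fields, ran from 22.5 over a median of 59.0 to 90.9 CPM in mPFC and from 34.3 over 83.1 to 173 CPM in vHipp. The ranges overlapped, and the vHipp library was the higher in 36 of the 39 mice with both regions. Its log2 fold change (LFC) of mPFC over vHipp was -0.57 (SE 0.09, edgeR quasi-likelihood test, p adjusted by Benjamini-Hochberg = 7.89e-08). Tenm1, the X-linked teneurin, ran from 22.0 over 51.6 to 79.1 CPM in mPFC and from 33.5 over 69.9 to 101.04 CPM in vHipp, and was higher in vHipp in 27 of 39 mice (LFC -0.36, SE 0.08, edgeR adjusted p = 0.000155). Tenm2, which pairs with latrophilins at synapses, had a range of 238 to 412 CPM and a median of 315 in mPFC, against 130.2 to 321 CPM and a median of 255 in vHipp. It was higher in mPFC in 36 of 39 mice, and its LFC was 0.35 (SE 0.05, edgeR adjusted p = 1.63e-08). For Tenm4, known for its part in myelination, the mPFC libraries ran from 205 over 279 to 364 CPM and the vHipp libraries from 124.2 over 229 to 313 CPM. The mPFC library was the higher in 34 of 39 mice, with an LFC of 0.33 (SE 0.06, edgeR adjusted p = 1.1e-06).

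The NCAMs differed from each other in this comparison. Ncam1 ran from 284 over 321 to 380.0 CPM in mPFC and from 271 over 330.4 to 383 CPM in vHipp, with an LFC of -0.04 (SE 0.03, edgeR quasi-likelihood test, p adjusted by Benjamini-Hochberg = 0.253), and it was higher in vHipp in 27 of 39 mice. Ncam2 ran from 45.6 over 113.9 to 180.2 CPM in mPFC and from 39.6 over 85.5 to 114.6 CPM in vHipp, and mPFC was the higher in 37 of 39 mice. Its LFC was 0.48 (SE 0.07, edgeR adjusted p = 4.63e-08). These values show 1 NCAM with no called difference and the other higher in mPFC.

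Of the contactin-associated proteins, 3 were higher in mPFC. Cntnap3, the least expressed of the 10 genes, had the largest LFC, 0.68 (SE 0.10, edgeR quasi-likelihood test, p adjusted by Benjamini-Hochberg = 2.35e-08). Its libraries ran from 3.57 over 10.2 to 16.5 CPM in mPFC and from 3.37 over 5.604 to 11.5 CPM in vHipp. It was higher in mPFC in 32 of 39 mice, as was Cntnap2. Cntnap2 ran from 93.5 over 140.8 to 175 CPM in mPFC and from 65.5 over 121.5 to 167 CPM in vHipp (LFC 0.23, SE 0.05, edgeR adjusted p = 0.000203). Cntnap4 ran from 12.3 over 32.0 to 52.8 CPM in mPFC and from 17.8 over 26.1 to 42.3 CPM in vHipp, and was higher in mPFC in 25 of 39 mice (LFC 0.26, SE 0.09, edgeR adjusted p = 0.0112). Its call was the least stable of the 8. It was lost without the mice of set 4 (LFC 0.24, edgeR adjusted p = 0.0563) and without those of set 5 (LFC 0.15, edgeR adjusted p = 0.26), a set being 4 consecutive CTRL numbers with 4 consecutive CSDS numbers. Cntnap5a ran from 32.4 over 44.8 to 66.2 CPM in mPFC and from 27.7 over 46.6 to 78.97 CPM in vHipp, and its LFC of -0.09 (SE 0.07, edgeR adjusted p = 0.245) was not called, with the vHipp library the higher in 24 of 39 mice.

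Known partners and relatives of the 10 genes were read in the same comparison, from lists of 36 genes. By edgeR's quasi-likelihood test after Benjamini-Hochberg adjustment, 20 of the 36 were higher in mPFC and 11 were lower. Of the 6 latrophilins and FLRT proteins, which are the teneurin receptors and their ligands, 5 were higher in mPFC and 1 was lower. The largest difference of all was that of the latrophilin Adgrl2, with 121.3 to 168 CPM in mPFC and 5.33 to 71.3 CPM in vHipp (LFC 2.34, SE 0.16). The 6 contactins had the same split of 5 higher and 1 lower. Cntn3 ran from 34.6 to 58.5 CPM in mPFC and from 6.39 to 19.3 CPM in vHipp (LFC 1.96, SE 0.07), and Cntn4 had an LFC of 1.61 (SE 0.09). The mPFC and vHipp ranges of Adgrl2, Cntn3, Cntn4, St8sia2 and Gfra1 did not overlap, nor did those of several other partners. The ranges of the remaining partners overlapped, Cntnap5c among them, as did those of all 10 adhesion genes described above. The named partners were picked for their large differences, and the share of all genes without overlap was not computed.

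Of the 4 genes of the L1 family, adhesion molecules that share the immunoglobulin fold of the NCAMs, 3 were higher in mPFC and none was lower. Among the 6 NCAM partners the balance was the other way, with 1 higher and 4 lower in mPFC. The polysialic acid enzyme St8sia2 was higher in mPFC, with 5.75 to 13.9 CPM against 1.14 to 4.26 CPM in vHipp (LFC 1.90, SE 0.10), and Gfra1, a receptor of glial cell line-derived neurotrophic factor, was lower, with 19.0 to 42.9 CPM against 56.7 to 157 CPM (LFC -1.76, SE 0.07). Of 5 genes of the Caspr2 complex (Kcna1, Kcna2, Kcnab2, Epb41l3 and Dlg4), 2 were higher and 2 lower. Of 9 other relatives, the remaining contactin-associated proteins, neurexins and neuroligins, 4 were higher and 3 lower, and the paralog Cntnap5c was lower in mPFC (LFC -1.89, SE 0.11), unlike Cntnap5a.

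Whether CSDS and ketamine changed expression, which the study asked beside its question of social rank, was then put to the 10 genes within each region. From here on CPM were scaled over the libraries of 1 region, so they differ slightly from the values above, which were scaled over all 79 libraries. None of the 10 was called in any of the 14 within-region comparisons by edgeR's quasi-likelihood test after Benjamini-Hochberg adjustment, and none by DESeq2. The share of all genes called by edgeR in each of these comparisons was 0.0% (28993 genes tested in mPFC and 28991 in vHipp). The values of the genes below are therefore given as estimates with their errors. By the paper stress was assigned to whole home groups, and the errors and p-values for stress treat the mice of a home group as independent. The comparisons share groups with one another, so their estimates are not independent. The 10 genes also varied together from library to library (described below), so the counts of genes below are not counts of independent genes.

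**Figure D2:**
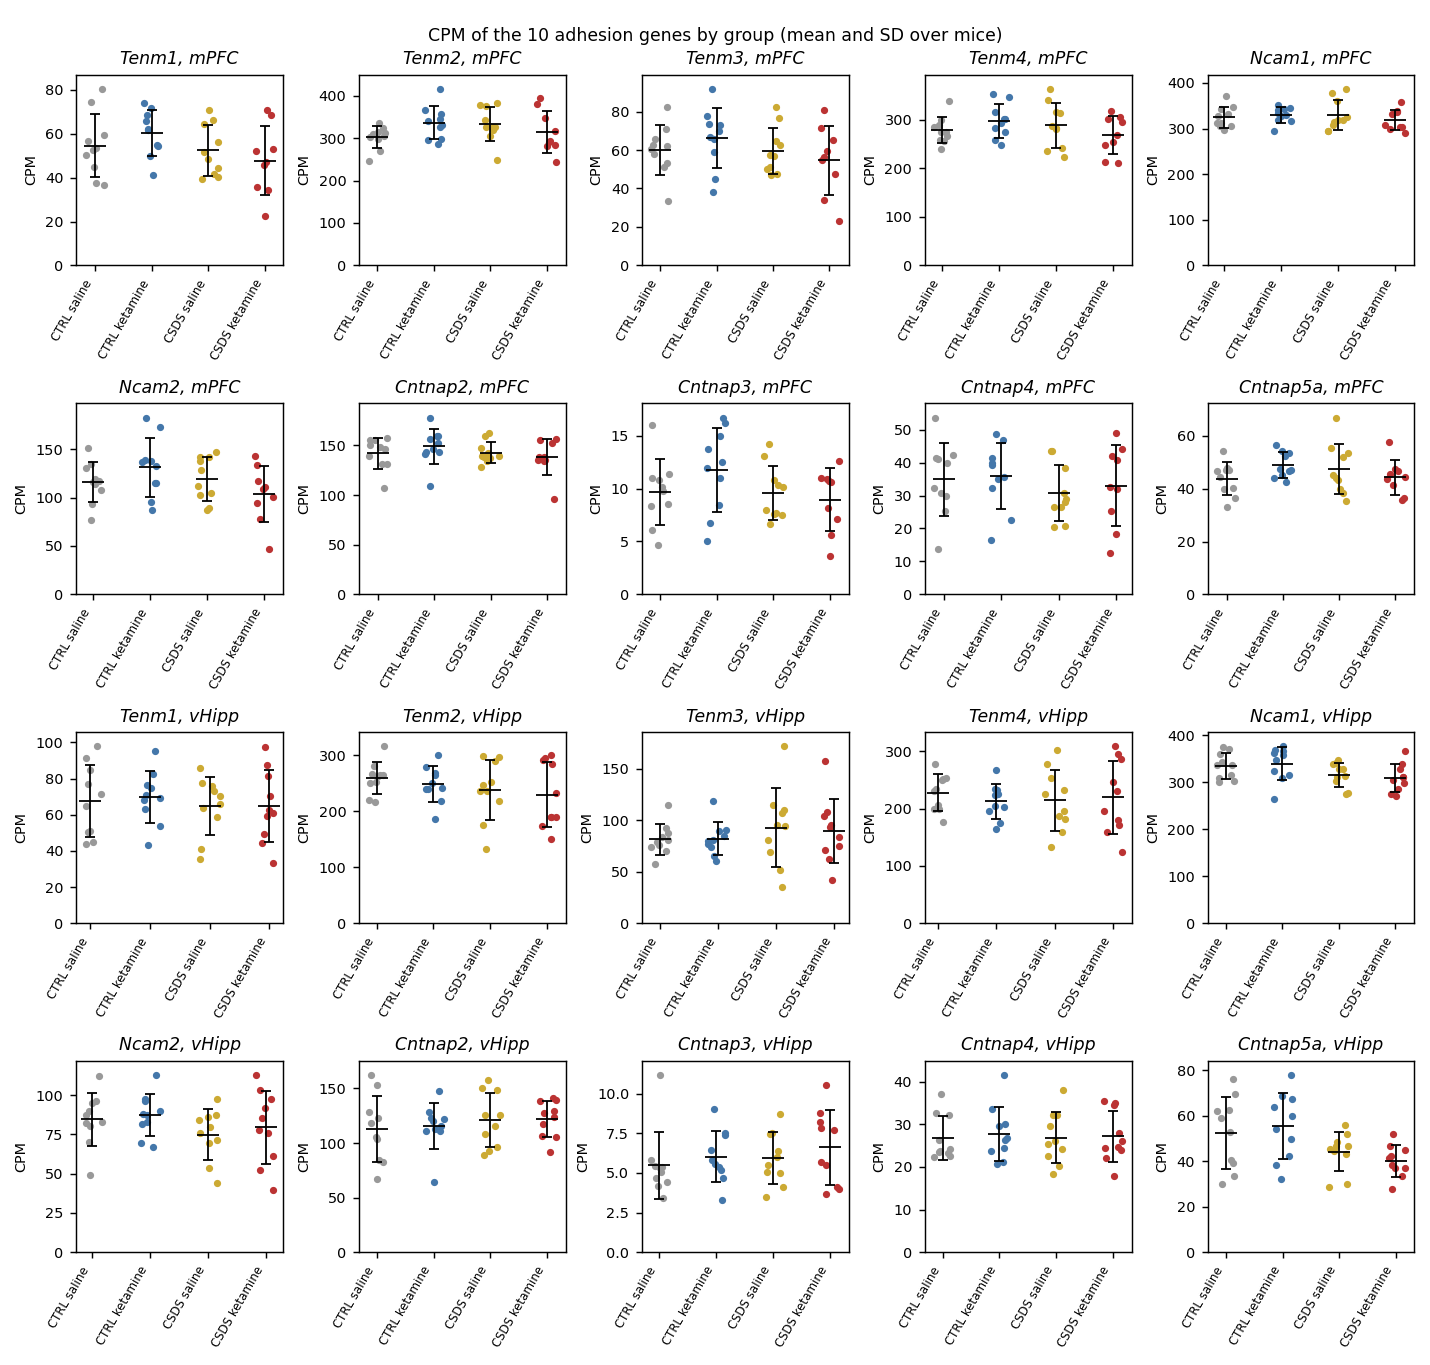
CPM of the 10 genes in each library of the 4 groups (10 mice per group, 9 in mPFC CSDS ketamine), with bars for the mean and SD, for mPFC (upper rows) and vHipp (lower rows). The groups overlap in every panel, and the vHipp CSDS ketamine libraries of Cntnap5a (27.6 to 51.8 CPM) all lie below the median of CTRL ketamine (32.3 to 77.7 CPM), and 1 lies below all of its libraries.

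In the mPFC of ketamine-treated mice all 10 genes had a lower fitted level in CSDS than in CTRL, with a median LFC of -0.15. Over all genes tested, 49.5% were below 0 and the median LFC was 0.00. Unadjusted p-values under 0.05 were reached by 2 of the 10, Tenm1 and Ncam2, against 3.38% of all genes that were lower at this threshold, and DESeq2 also gave 2. These 2 genes varied together over the mPFC libraries (r = 0.91), so they are not independent results. In Tenm1, the CTRL ketamine libraries ran from 41.0 over a median of 61.9 to 73.9 CPM and the CSDS ketamine libraries from 22.6 over 47.4 to 70.8 CPM. The groups overlapped, with 7 of the 9 CSDS libraries below the CTRL median and 3 below all CTRL libraries. Its LFC was -0.34 (SE 0.16, edgeR quasi-likelihood test, p adjusted by Benjamini-Hochberg = 0.83). In Ncam2, the CTRL ketamine libraries ran from 87.6 over 135.1 to 183 CPM and the CSDS ketamine libraries from 46.8 over 108.8 to 142.7 CPM. Here 8 of 9 CSDS libraries lay below the CTRL median and 2 below all CTRL libraries (LFC -0.34, SE 0.14, edgeR adjusted p = 0.83). Cntnap3 had the largest estimate with a wider error, an LFC of -0.39 (SE 0.21), and Tenm3 had -0.27 (SE 0.16). Over 17 alternatives Cntnap3 ran from -0.47 to -0.20 and Ncam2 from -0.48 to -0.22, so Cntnap3 was not the largest in all of them. The more abundant genes had narrower errors, with an LFC of -0.15 (SE 0.08) for Tenm4, -0.11 (SE 0.07) for Cntnap2, -0.09 (SE 0.08) for Tenm2 and -0.05 (SE 0.05) for Ncam1. The estimates of Cntnap5a and Cntnap4 were -0.14 (SE 0.09) and -0.12 (SE 0.21).

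This shared direction was smaller without the libraries of mouse 1 of the CSDS ketamine group, which stood lowest of their group in 9 of the 10 genes in each region. Without them the median LFC in mPFC was -0.12, that of Tenm1 -0.25 and that of Ncam2 -0.25, and no gene had an unadjusted p under 0.05. After each library was corrected for its dependence on GC content and exonic length (described below), the median was -0.10, with -0.24 (SE 0.12) for Tenm1 and -0.24 (SE 0.10) for Ncam2. Beside these values, 4 oligodendrocyte markers (Mbp, Mog, Mag and Mobp) had fitted levels above 0 in the same comparison (median LFC 0.45, none with an unadjusted p under 0.05), with summed levels of 413 to 2237 CPM in CTRL ketamine and 368 to 3969.8 CPM in CSDS ketamine. The 4 excitatory neuron markers (Slc17a7, Camk2a, Neurod6 and Tbr1) were all below 0 (median LFC -0.03), with sums of 5144 to 6578 CPM and 5073 to 6351 CPM. With the excitatory neuron and cortical layer scores of each library in the model, the median of the 10 genes was -0.10 and 9 of 10, all but Cntnap4, stayed below 0. The part of cell content in the remaining difference was not tested. Of the 36 partner and family genes, 29 were below 0 in the same comparison (median LFC -0.08) and none was called.

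**Figure D3:**
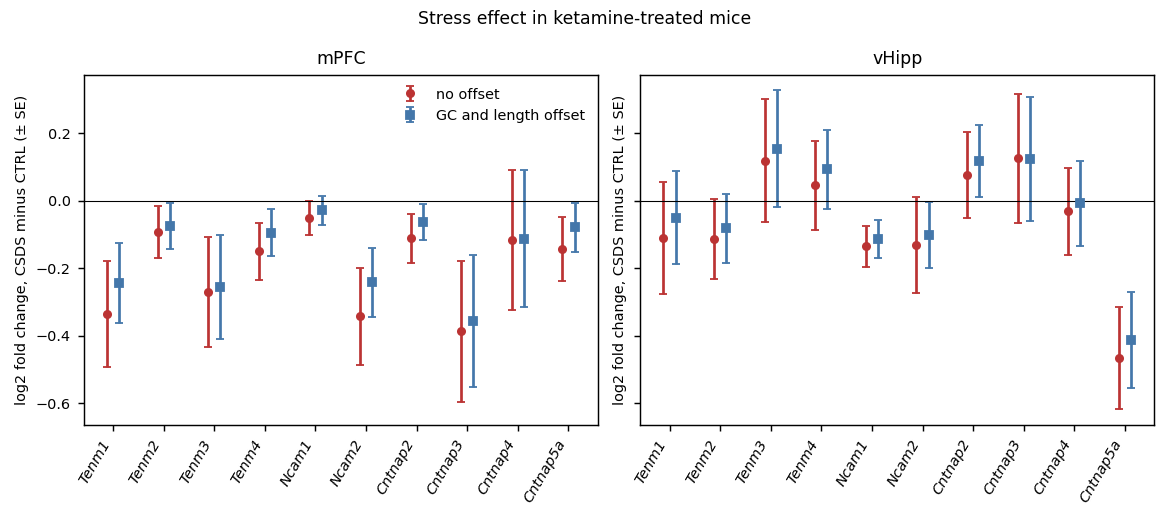
LFC of CSDS over CTRL in ketamine-treated mice with its SE, in mPFC (left) and vHipp (right), without an offset (circles) and with the GC and length offset (squares). In mPFC all 10 estimates lie below 0 in both fits, with a median of -0.15 and -0.10, and in vHipp Cntnap5a lies lowest at -0.47 and -0.41.

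In the mPFC of saline-treated mice the 10 genes showed no common direction, with 4 below 0 and 6 above 0 and a median LFC of 0.02. The largest estimates were -0.19 (SE 0.20) for Cntnap4 and 0.14 (SE 0.08) for Tenm2. Over 17 alternatives they ran from -0.29 to -0.06 for Cntnap4 and from 0.11 to 0.21 for Tenm2. The interaction of stress and ketamine in mPFC, which tests whether the stress effect differed between the treatments, was below 0 for 9 of 10 genes (median LFC -0.25) and for 48.9% of all genes, and none was called by edgeR. Tenm2 alone of the 10 had an unadjusted p under 0.05, against 2.88% of all genes that were lower at this threshold (LFC -0.24, SE 0.11, edgeR quasi-likelihood test, p adjusted by Benjamini-Hochberg = 0.898). The 4 groups of Tenm2 had mean levels of 302 ± 26.1 CPM (SD, n = 10) in CTRL saline, 336 ± 38.9 CPM (n = 10) in CTRL ketamine, 333 ± 40.3 CPM (n = 10) in CSDS saline and 315 ± 49.4 CPM (n = 9) in CSDS ketamine. CTRL ketamine and CSDS saline had the higher means, and every group overlapped the others.

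Ketamine against saline gave estimates above 0 for all 10 genes in the mPFC of CTRL mice (median LFC 0.14) and below 0 for 9 of 10 in the mPFC of CSDS mice (median LFC -0.10). Of all genes, 48.5% were not below 0 in the first comparison and 50.1% below 0 in the second. In CTRL mice Tenm2 had an LFC of 0.16 (SE 0.08), the only unadjusted p under 0.05 among the 10 genes there, against 1.74% of all genes that were higher at this threshold. The CTRL ketamine group enters both this comparison and that of CSDS with CTRL under ketamine, so a high level in that group would appear in both. In vHipp, ketamine against saline gave median LFCs of 0.04 in CTRL and 0.00 in CSDS, and no gene had an unadjusted p under 0.05.

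In the vHipp the members of the 3 families did not share a direction. Under ketamine 6 of 10 genes had an LFC below 0 in CSDS (median LFC -0.07, which ran from -0.13 without set 2 to 0.00 without mouse 1), and 2 had an unadjusted p under 0.05, Cntnap5a and Ncam1, against 2.61% of all genes lower at this threshold. Over both treatments the same 2 genes passed it, against 4.4% of all genes, and 7 of 10 were below 0 (median LFC -0.05). DESeq2 also gave 2 of the 10 in each of these comparisons. Cntnap5a ran from 30.0 over 56.0 to 76.1 CPM in CTRL saline and from 32.3 over 57.2 to 77.7 CPM in CTRL ketamine. In the stressed mice it ran from 28.8 over 45.9 to 56.0 CPM with saline and from 27.6 over 39.8 to 51.8 CPM with ketamine. All 10 CSDS ketamine libraries lay below the CTRL ketamine median and 1 lay below all CTRL ketamine libraries, and with saline the counts were 9 and 2 of 10. Its LFC was -0.47 with ketamine (SE 0.15, edgeR quasi-likelihood test, p adjusted by Benjamini-Hochberg = 0.896), -0.25 with saline (SE 0.15, edgeR adjusted p = 0.907, and from -0.37 without set 2 to -0.09 without set 3 over 17 alternatives) and -0.36 over both treatments (SE 0.11, edgeR adjusted p = 0.323).

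Ncam1 in vHipp ran from 265 over 352 to 376 CPM in CTRL ketamine and from 269.7 over 307 to 365 CPM in CSDS ketamine, and 9 of 10 CSDS ketamine libraries lay below the CTRL ketamine median. With saline it ran from 299 over 336 to 374 CPM in CTRL and from 275 over 320.0 to 346 CPM in CSDS. Its LFC over both treatments was -0.11 (SE 0.04, edgeR quasi-likelihood test, p adjusted by Benjamini-Hochberg = 0.412). The other 8 genes had LFCs over both treatments between -0.15 (SE 0.10) for Ncam2 and 0.16 (SE 0.13) for Tenm3. The vHipp spread of Tenm3 was wider in stressed mice, with 92.9 ± 38.0 CPM (SD, n = 10) in CSDS saline and 89.2 ± 31.2 CPM (n = 10) in CSDS ketamine against 81.3 ± 15.2 CPM (n = 10) in CTRL saline and 82.1 ± 15.9 CPM (n = 10) in CTRL ketamine. The difference in spread was not tested, and it was not compared with that of the other genes.

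The estimate for Cntnap5a over both treatments was -0.32 (SE 0.10) with the GC and length offset, -0.35 (SE 0.09) with the marker scores and -0.33 (SE 0.11) without mouse 1. The paralog Cntnap5b, named here after its values were seen, had an LFC of -0.34 (SE 0.16) with ketamine, at an edgeR adjusted p of 0.896. Markers of other cells were read in the same contrast in vHipp. All 4 microglia markers (Cx3cr1, P2ry12, Tmem119 and Csf1r) were above 0 in CSDS over both treatments with an unadjusted p under 0.05 (median LFC 0.28), with sums of 107.4 to 190.1 CPM in CTRL and 140.2 to 422 CPM in CSDS libraries. All 5 astrocyte markers were above 0 (sums of 901 to 1369.7 CPM in CTRL and 947 to 2934 CPM in CSDS libraries), as were all 4 endothelial markers (74.5 to 123.01 CPM and 83.1 to 241 CPM) and all 3 oligodendrocyte precursor markers (75.8 to 127.2 CPM and 77.7 to 196 CPM). None of these markers was called by edgeR after adjustment. The cortical layer markers Tle4 and Rasgrf2 (LFC -0.15 each) were below 0 and Rorb (0.28) above 0, and the list summed to 261 to 367 CPM in CTRL and 235 to 336 CPM in CSDS libraries. The marker scores in the fit above were those of the excitatory neuron and cortical layer lists alone, and the part of microglia, astrocytes, endothelial cells and oligodendrocyte precursors in the values of Cntnap5a and Ncam1 was not tested.

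Whether the stress effect under ketamine differed between the regions was tested as a difference of differences. None of the 10 genes was called by edgeR, and none had an unadjusted p under 0.05 (0.0% of 31534 genes were called). The median of the 10 was -0.19 for mPFC minus vHipp, with the most negative value for Cntnap3 (-0.51, SE 0.29) and the most positive for Cntnap5a (0.32, SE 0.19). Over 16 alternatives Cntnap3 ran from -0.67 to -0.18, Tenm3 from -0.48 to -0.29 and Cntnap5a from 0.17 to 0.46, so Cntnap3 was not the most negative in all of them. With the mouse as a replicate block, which uses the pairing of regions within mice, the median was -0.12 and again no gene was called.

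Both regions of a mouse could be read together in 39 mice. After the group means were removed, 5 of the 10 genes correlated between mPFC and vHipp of the same mouse by Pearson's r and 3 by Spearman's rho (permutation tests, adjusted p under 0.05 over 10 relations). Tenm2 had r = 0.52 (adjusted permutation p = 0.0074) and rho = 0.46 (adjusted permutation p = 0.0173), and r = 0.40 without the 2 farthest mice. Ncam1 had r = 0.44 (adjusted permutation p = 0.0174) and rho = 0.47 (adjusted permutation p = 0.0173), and r = 0.41 without the 2 farthest mice. Ncam2 had r = 0.49 (adjusted permutation p = 0.0087) and rho = 0.42 (adjusted permutation p = 0.0259), but r = 0.22 without the 2 farthest mice, so its relation rested on them. Over 11666 genes of at least 5 CPM in both regions, the median r of a gene between the regions of a mouse was 0.33, above the median of 0.28 over the 10 genes. With the GC and length offset the relation held for Tenm2 (r = 0.43) and Ncam1 (r = 0.41), with an adjusted permutation p of 0.0453 each, and for no other of the 10. Mice of a set can share a level in both regions. With the set means removed beside the group means and permutation within sets, 2 genes passed by r, Tenm2 (r = 0.51, adjusted permutation p = 0.032, rho = 0.47, adjusted permutation p = 0.0469) and Tenm3 (r = 0.45, adjusted permutation p = 0.0425, rho = 0.37, adjusted permutation p = 0.101), while Ncam1 had r = -0.02 and rho = -0.06.

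Because these transcripts are long and several are poor in GC, their dependence on the library was examined next. For each library, the slope of all genes' deviations from their group means was taken against exonic length (log2 units per doubling of length) and against GC content (log2 units per 10 percentage points). The levels of all 10 genes rose with the length slope of the library in both regions. The slope measures how longer genes deviate in a library, and the 10 genes were chosen as long genes. Relations above 0 were thus partly built into this choice, and genes of like length were not compared. In mPFC the correlations with the length slope ran from r = 0.45 for Tenm4 to r = 0.77 for Tenm3 (rho from 0.41 to 0.71), and in vHipp from r = 0.46 for Cntnap2 to r = 0.79 for Ncam2 (rho from 0.36 to 0.63). All 20 of these passed permutation tests adjusted over the 40 relations computed, the largest adjusted permutation p being 0.0049 for r and 0.0258 for rho. Without the 2 farthest libraries r stayed between 0.37 and 0.63 in mPFC and between 0.34 and 0.67 in vHipp. For comparison, the median r of 11666 genes was -0.01 in mPFC and 0.03 in vHipp, and the upper quartile was 0.34 and 0.35. A value at or above the lowest of the 10 genes was found in 17.7% of these genes in either region.

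With the GC slope the relation was the opposite, with r from -0.81 (Ncam2) to -0.24 (Tenm4) in mPFC and from -0.78 (Ncam2) to -0.20 (Cntnap5a) in vHipp. Of the 20 relations with the GC slope, 18 passed by r, all but Tenm4 in mPFC and Cntnap5a in vHipp, and over both slopes 38 of 40 passed by r and 35 by rho. Such relations were common, since 26.5% of the 11666 genes in mPFC and 25.7% in vHipp had an r at or below the weakest of the 10 genes that passed. Ncam2, which has the most GC-poor exons of the 10, had rho of -0.79 in mPFC and -0.83 in vHipp (adjusted permutation p = 6.7e-05 for each) and r of -0.75 and -0.70 without the 2 farthest libraries. The slopes are not independent measures. The GC and length slopes were correlated across libraries (r = -0.62 in mPFC and -0.63 in vHipp, descriptions over 39 and 40 libraries), and the length slope of a mouse was similar in both regions (r = 0.83 over 39 mice). The 10 genes were left out of the slopes.

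The slopes also followed the sets of mice, which the tests above treat as exchangeable. The GC slope was below 0 in all libraries of set 2 (7 in mPFC and 8 in vHipp) and above 0 in all libraries of set 5 (8 in each region). With the set means removed and permutation within sets, 33 of the 40 relations passed by r. With the length slope 19 of 20 passed, all but Tenm4 in mPFC (r = 0.38, adjusted permutation p = 0.0694, rho = 0.32, adjusted permutation p = 0.0949), and r ran from 0.36 to 0.67 in mPFC and from 0.48 to 0.83 in vHipp. With the GC slope 14 of 20 passed.

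**Figure D4:**
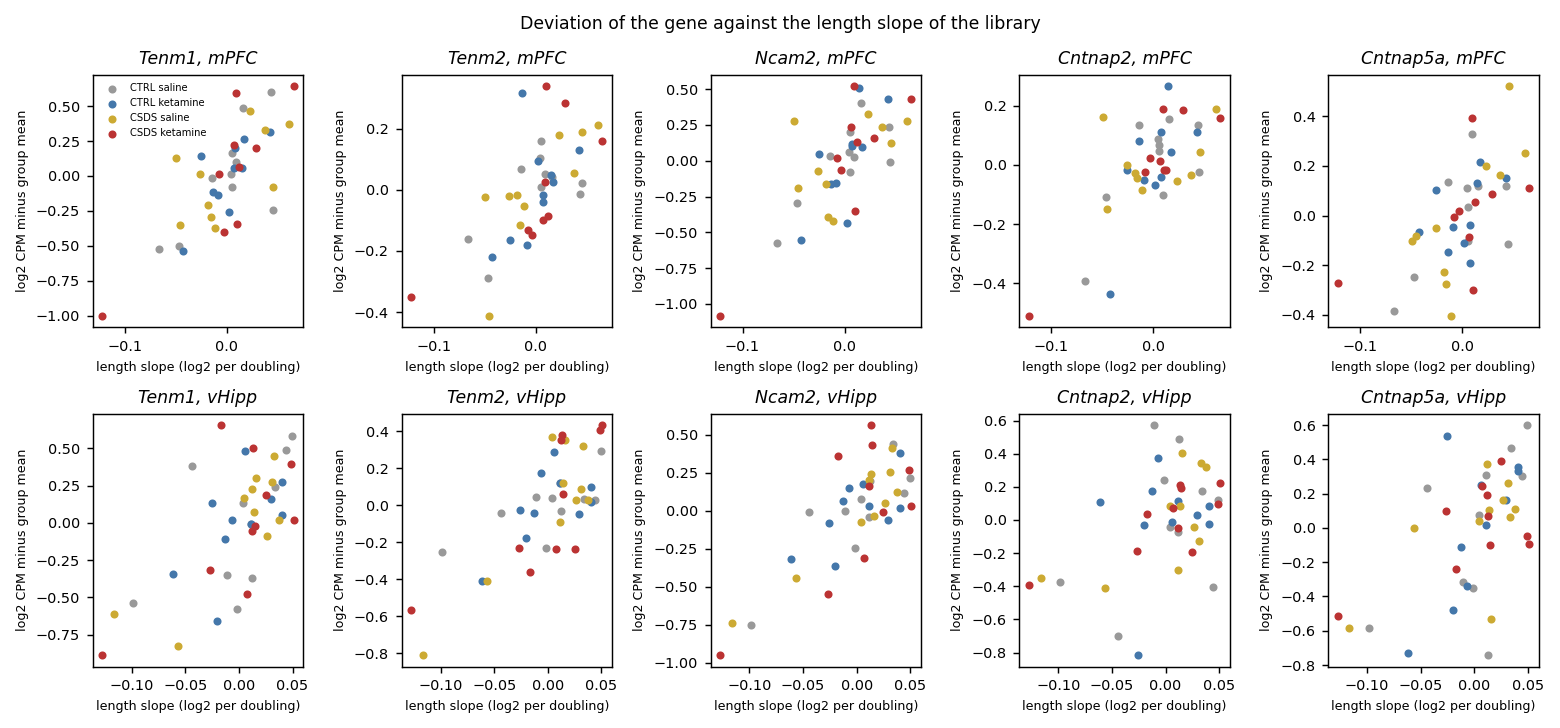
Deviation of log2 CPM from the group mean against the length slope of the library for 5 of the genes in mPFC (upper row, 39 libraries) and vHipp (lower row, 40 libraries), colored by group. The points rise from left to right in every panel, and the leftmost point, mouse 1 of CSDS ketamine, lies at a slope of -0.122 in mPFC and -0.127 in vHipp.

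Mouse 1 of the CSDS ketamine group had the lowest length slope of both regions, -0.122 in mPFC and -0.127 in vHipp as deviations from the group mean, with GC slopes of 0.205 and 0.213. All 10 genes were below their group mean in its mPFC library, by a median of -0.76 log2 units, and in its vHipp library, by a median of -0.61. Between groups, no slope difference passed a permutation test over the 16 differences computed. The length slope of mPFC libraries averaged -0.016 in CSDS ketamine (n = 9) and 0.0148 in CTRL ketamine (n = 10), with a permutation p of 0.0865 (adjusted p = 0.839 over 16 permutation tests). Over all genes sorted by exonic length, the 1568 shortest genes had a median LFC of 0.09 and the 1568 longest -0.07, which became 0.01 and 0.00 with the GC and length offset.

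The levels were then set against marker lists for cell types, as deviations from group means over the libraries of a region. In mPFC all 10 genes correlated above 0 with the excitatory neuron list, and 8 passed a permutation test adjusted over 110 relations (median r 0.69). Cntnap4 had the highest value (r = 0.84, adjusted permutation p = 0.00011, rho = 0.80, adjusted permutation p = 0.000367, r = 0.80 without the 2 farthest libraries), followed by Tenm3 (r = 0.77, rho = 0.74) and Tenm1 (r = 0.76, rho = 0.75). Tenm2 (r = 0.22, adjusted permutation p = 0.281, rho = 0.21, adjusted permutation p = 0.314) and Ncam1 (r = 0.33, adjusted permutation p = 0.0999, rho = 0.29, adjusted permutation p = 0.131) did not pass. The cortical layer list gave 9 that passed in mPFC and 6 in vHipp. With the microglia list the mPFC relations were all below 0, and 6 of 10 passed, the lowest being Cntnap4 (r = -0.63, rho = -0.57). With the astrocyte list 5 passed, all below 0. With the inhibitory neuron list all 10 were below 0 in mPFC and 3 passed, against 3.83% of 11666 genes at or below the weakest of them. The striatal neuron list gave 3 that passed above 0 (5.25% of all genes) and the hippocampal list 3 below 0 (11.3%). Of all 11666 genes, 17.1% lay at or above the weakest passing r of the 10 genes with the excitatory neuron list and 11.9% with the cortical layer list (6.03% for the latter in vHipp), and 9.81% and 18.6% lay at or below it with the microglia and astrocyte lists. With the set means removed and permutation within sets, 6 of 10 passed with the excitatory neuron list, Cntnap4 (r = 0.77, rho = 0.79), Tenm1 (r = 0.67, rho = 0.68), Tenm3 (r = 0.64, rho = 0.68), Ncam2 (r = 0.62, rho = 0.67), Cntnap3 (r = 0.60, rho = 0.57) and Cntnap2 (r = 0.59, rho = 0.59), with adjusted permutation p-values from 0.0011 to 0.00422 for r. With the cortical layer list 2 passed, Tenm2 and Cntnap2, and with the microglia, astrocyte, inhibitory neuron, striatal neuron and hippocampal lists none did by r. By rho Cntnap4 still passed with the microglia list (rho = -0.51, adjusted permutation p = 0.0293).

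In vHipp fewer relations passed, 17 of 110 by r and 22 by rho, against 41 and 50 of 110 in mPFC. By r these were 15.5% of the vHipp and 37.3% of the mPFC relations. Over all 11666 genes and the 11 lists, 19.4% of relations in vHipp and 22.2% in mPFC were at least as large as the weakest that passed. With the set means removed and permutation within sets, 16 passed in vHipp and 8 in mPFC. With the excitatory neuron list Cntnap2 passed above 0 in vHipp (r = 0.59, adjusted permutation p = 0.0022, rho = 0.46, adjusted permutation p = 0.0233, r = 0.45 without the 2 farthest libraries), while Tenm1 (r = -0.43, adjusted permutation p = 0.0325, rho = -0.52, adjusted permutation p = 0.00584) and Cntnap4 (r = -0.44, adjusted permutation p = 0.0324, rho = -0.42, adjusted permutation p = 0.0449) passed below 0. Cntnap4 correlated with the inhibitory neuron list (Gad1, Gad2, Slc32a1, Pvalb, Sst, Vip and Lamp5) in vHipp, with r = 0.67 (adjusted permutation p = 0.00055), rho = 0.69 (adjusted permutation p = 0.0022) and r = 0.62 without the 2 farthest libraries. An r this high was found in 0.651% of all 11666 genes, and within sets it was 0.69 (adjusted permutation p = 0.000367, rho = 0.72, adjusted permutation p = 0.00165). Within sets Cntnap3 passed with this list as well (r = 0.54, adjusted permutation p = 0.0136, rho = 0.51, adjusted permutation p = 0.0205). In mPFC the relation of Cntnap4 with this list was r = -0.01 (rho = -0.09) without the set means removed. Cntnap5a had its highest vHipp relation with the cortical layer list (r = 0.63, adjusted permutation p = 0.00055, rho = 0.60, adjusted permutation p = 0.00275, r = 0.60 without the 2 farthest libraries), which within sets was r = 0.50 (adjusted permutation p = 0.024, rho = 0.45, adjusted permutation p = 0.0476). Tenm3 correlated with the oligodendrocyte precursor list (Pdgfra, Cspg4 and Vcan) at r = 0.63 (adjusted permutation p = 0.0011), rho = 0.52 (adjusted permutation p = 0.00584) and r = 0.49 without the 2 farthest libraries, and within sets at r = 0.64 (adjusted permutation p = 0.00528, rho = 0.60, adjusted permutation p = 0.00704). Within sets 2 genes again passed below 0 with the excitatory neuron list by r, Tenm1 and Cntnap3 (r = -0.49, adjusted permutation p = 0.0348, rho = -0.45, adjusted permutation p = 0.0487), while Cntnap4 passed by rho alone (r = -0.44, adjusted permutation p = 0.0634, rho = -0.45, adjusted permutation p = 0.0487). The marker sums share the library, and so its length and GC slopes, with the 10 genes.

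**Figure D5:**
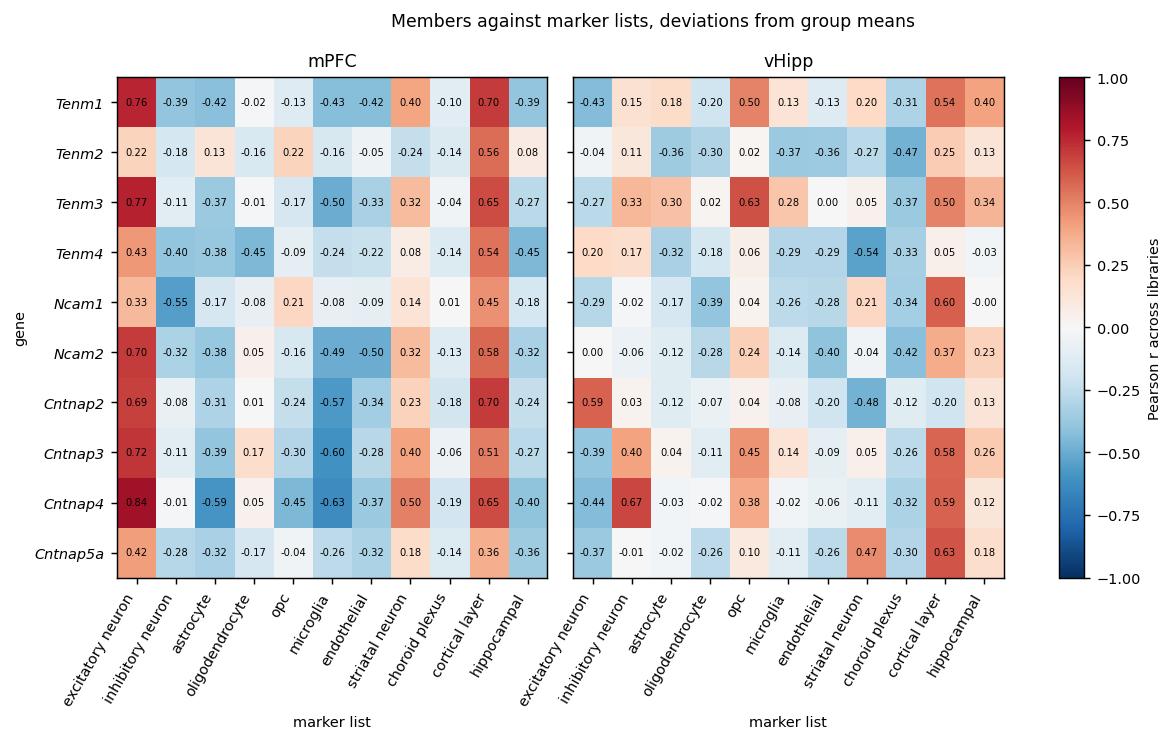
Pearson's r between the deviations of each gene (rows) and of the mean log2 CPM of each marker list (columns) across 39 mPFC libraries (left) and 40 vHipp libraries (right), from blue at -1 to red at 1. The excitatory neuron column is above 0 for all 10 genes in mPFC (0.22 to 0.84), and in vHipp Cntnap4 has its value of 0.67 with the inhibitory neuron list.

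The 10 genes also varied together from library to library. All 45 pairs had r above 0 in mPFC (median 0.55) and 42 of 45 in vHipp (median 0.49), where the median over pairs of all genes of at least 5 CPM was 0.00 and 0.02. With the GC and length offset the medians of the 10 genes were 0.40 and 0.36, and 43 and 38 of the 45 pairs were above 0. The closest pair was Tenm1 and Ncam2 in mPFC (r = 0.91), and the most opposed was Cntnap2 and Cntnap5a in vHipp (r = -0.29). With the offset these pairs stood at r = 0.86 and -0.65, and Ncam1 with Cntnap2 in vHipp moved from -0.22 to -0.63. These are descriptions over 39 and 40 libraries that share length slope and set. Among all genes, the one most like Ncam2 by the mean r of both regions was Chl1, an adhesion gene of the L1 family (0.90), followed by Avl9 (0.88). Tenm1 was most like Dnm3, a dynamin (0.87), and Pcdh17, a protocadherin (0.86), and Tenm3 was most like Dnm3 (0.86) and Xylt1 (0.86). The genes most like Tenm2 were Zkscan16 and Bptf (0.81 each), and those most like Tenm4 were Dlg2, a synaptic scaffold, and Cmip (0.82 each). Ncam1 had the weakest likeness, to Dyrk1a (0.74) and Trrap (0.73), and Cntnap2 was most like Runx1t1 (0.85) and Crim1 (0.84). Cntnap3 was most like its relative Cntnap4 (0.74) and Nxph1, a neurexophilin (0.74). Cntnap4 was most like Adgra1 (0.82) and Gabrg3, a GABA receptor subunit (0.81), and Cntnap5a was most like Galnt13 and Rnf217 (0.75 each).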

How the data were processed

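The authors deposited a table of raw counts per Ensembl gene. By the methods, 1 mm punches were taken from 200 µm slices, RNA had an integrity number of at least 8, and libraries were made with a stranded mRNA kit. The submitters' processing notes name bcl2fastq 2.20.0.422, CASAVA and GRCm38, and the aligner and counter are not given in the sources used here. Poly(A) libraries and counts per gene make values depend on transcript length and GC content, which is why each library's slopes were measured.

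Counts were tested with edgeR 4.0.16 (R 4.3.3, quasi-likelihood test, TMM factors, Benjamini-Hochberg adjustment at 0.05) on genes with a total above 10 detected in more than 3 libraries, with the 4 groups of a region in 1 fit. The study's model held a term for the social group, which the labels do not give and which was left out. The regions were compared in 1 fit of all 79 libraries. Their libraries are paired, since both came from the same mouse (median r of the 10 genes' deviations 0.28), and the mouse served as a block in an alternative. The offset subtracts each library's median deviation in 20 bins of GC content and exonic length, from genes of at least 1 CPM. CPM were scaled over all 79 libraries for levels per length and between regions, and over 1 region elsewhere. Slopes, marker scores and likeness used log2 CPM (prior count 2) minus group means, and permutation tests drew 100000 resamples (scipy 1.17.1, two-sided), so that 1e-05 is the smallest p they can give. Symbols matched 55144 of 55471 genes, and 327 without a symbol could not be corrected by the offset. DESeq2 1.42.0 and limma 3.58.1 were alternatives. On simulated counts for CSDS against CTRL with ketamine in mPFC (28993 genes), edgeR recovered 76% of 50 genes changed 1.5-fold and 100% of those changed 2-fold. Of the genes it called there, 6.47% were false. The simulated libraries varied with exonic length but held no sets of mice, GC slopes or cell content. Even the 1.5-fold change was larger than any estimate of the 10 genes in that comparison. How often changes of their size would be called was not tested.

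The genes, lists and tests were chosen with earlier results of these data known. The alternatives added after seeing the data were the fit without mouse 1, the fit with marker scores and the correlations within sets of mice. All 10 genes are named in every comparison, partner genes were named if called within a region or among the 6 largest called differences between regions, and 2 genes were named as most like each of the 10. Some marker genes are not reported here and were left out of their lists. Mice are the replicates of the fits. By the paper, however, whole home groups were exposed to CSDS or served as controls, so stress was assigned by home group and not by mouse. The main fits and the permutation tests between groups took the mice of a home group as independent. Their SEs and p-values for stress do not account for this. The labels do not give the home groups, and whether the runs of consecutive mice used as a block term in an alternative match them is not known.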

Additional observations from a re-analysis of the deposited data

Results flagged for a closer look

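Of 80 groups of a gene and region tested for a library far from the rest, 5 held one, and chance flags about 4 of 80 at the 5% level of Dixon's test. CPM here were scaled over the libraries of 1 region. In the mPFC, Cntnap2 stood at 95.999 CPM in mouse 1 of CSDS ketamine, the lowest of its group, where the nearest library was at 134.4 CPM, and at 107.5 CPM in mouse 24 of CTRL saline, with the nearest at 130.8 CPM. In the vHipp, Cntnap2 stood at 64.4 CPM in mouse 36 of CTRL ketamine (nearest 110.9 CPM). The highest libraries of their groups were mouse 32 of CTRL ketamine for Tenm3 in vHipp, at 118.6 CPM (nearest 90.4 CPM), and mouse 30 of CTRL saline for Cntnap3 in vHipp, at 11.2 CPM (nearest 5.81 CPM).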

How the results depend on the processing

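The alternatives were other normalization (RLE), DESeq2, filterByExpr or no filter, GC and length offsets, a covariate for the set, limma-voom with runs of 4 consecutive mice as a block term, fits of the compared groups alone, each set left out, no mouse 1, and marker scores. No alternative called any of the 10 genes within a region or in the difference between regions. DESeq2 called 14 genes, all higher and none of the 10, for CSDS against CTRL over both treatments in vHipp, where edgeR called 0, and gave no adjusted p for Cntnap5a there. Between mPFC and vHipp the number called was 8 in all alternatives except without set 4 or without set 5, when it was 7. Cntnap4 was the gene lost, with an LFC of 0.24 (edgeR adjusted p = 0.0563) and 0.15 (edgeR adjusted p = 0.26). With the mouse as a replicate block, with or without the offset, 8 were called, and the pairing changed no call. In mPFC under ketamine the median LFC of the 10 genes stayed below 0, from -0.24 to -0.10 over 17 alternatives. The LFC of Cntnap4 there was reversed to 0.093 with the marker scores as covariates (edgeR adjusted p = 0.993), and the cause was not tested. The median interaction in mPFC ran from -0.29 to -0.14. For Cntnap5a in vHipp over both treatments the LFC ran from -0.43 to -0.25 (adjusted p from 0.143 to 0.813), the smallest without set 3. Relations between the regions of a mouse dropped from 5 to 2 of 10 with the GC and length offset, whose construction removes the slopes that both regions share. The relations with the slopes numbered 38 of 40 also with RLE factors, and those with marker lists went from 58 to 74 over both regions with the offset. With set means removed and permutation within sets, an alternative chosen after seeing the data, 33 of the 40 relations with the slopes passed, 2 of the 10 between the regions, and 24 of those with marker lists, most of the loss being in mPFC (8 left of 41). The construction of this alternative removes what the mice of a set share. The least abundant of the 10 genes had at least 3.37 CPM in every library, so all were detected, and how far depth limits the comparisons was not tested.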
